A study of Mus musculus with 2 samples.

Results

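Arterial endothelial cells made up 63 of the 4071 cells that passed the quality filter in 2 single-cell libraries of mouse lung, 49 of 2745 in the library labelled WT and 14 of 1326 in the library labelled KO. They were chosen by measured values, namely the UMIs (unique molecules counted) of 22 genes. A cell needed at least 3 of the 6 endothelial genes Pecam1, Cdh5, Cldn5, Egfl7, Ramp2 and Calcrl, and at least 2 of the 5 arterial genes Gja5, Bmx, Dkk2, Esr2 and Fbln5. It could hold no more than 2 of the 6 aerocyte genes Ednrb, Fibin, Tbx2, Chst1, Car4 and Sirpa, and no more than 1 of the 5 venous genes Slc6a2, Amigo2, Car8, Cytl1 and Cpe. Both libraries came from lungs of C57BL/6J mice aged 10 to 12 weeks, modelling HHT2, type 2 of hereditary hemorrhagic telangiectasia, an inherited disease of malformed vessels. Lung cells positive for VE-cadherin, an endothelial junction protein, and negative for the leukocyte protein CD45 had been sorted and run on the 10x Genomics platform. The labels give the groups as WT and KO only. The deleted gene, the allele, any inducing agent, the sex and the number of animals are not given in the sources used here. With 1 library in each group no difference could be checked in replicates and no p-value is given. The 95% intervals of shares, levels and ratios below cover counting error only. Those of gene list medians cover the spread over the genes of a list, treated as independent, and hold no counting error of their own.

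Arteries carry blood away from the heart, and their endothelial cells sit on an elastic wall that the thin capillaries of the air sacs lack. Arterial fate is set and kept by Notch signalling, through the ligand Dll4, the receptor Notch1 and target genes such as Hey1, and arterial cells are joined by the connexins Gja5 and Gja4. Most lung endothelial cells are capillary cells of 2 kinds, general capillary cells and aerocytes, the latter thin cells specialised for gas exchange. HHT2 is caused in patients by loss of ACVRL1 (ALK1), an endothelial receptor of BMP9 and BMP10 that acts through SMAD proteins on targets such as Id1, Id3, Smad6 and Smad7.

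The label was set beside genes the selection did not use. Of the WT members, 7 carried at least 3 markers of another lineage and were left out of all levels, which left 42 WT and 14 KO cells with 220401 and 82710 UMIs. Levels are the UMIs of a gene summed over a class, per 1000000 UMIs of that class (CPM), and the comparison group was all other endothelial cells without such markers, 1479 in WT and 499 in KO. The summed level of 7 further arterial markers (Gja4, Sox17, Hey1, Efnb2, Dll4, Unc5b and Mecom) was 3907 CPM in WT arterial cells against 1768 in other endothelial cells. In KO it was 3482 against 1695. Efnb2 was the largest part of the sum, and Sox17 was not higher in either library, as given below. All 7 belong to the arterial identity list below, drawn up with these cells' results known, so their sum is a description and not independent evidence. Markers of general capillary cells summed to 1039 against 3073 CPM in WT and 1922 against 3651 in KO. All 6 leukocyte markers were at 0 in the members, and 1 WT arterial cell held at least 3 lymphatic markers. The list of 8 surfactant and free RNA transcripts, which holds 4 surfactant genes beside Lyz1, Lyz2, Scd1 and Cd74, summed to 4283 CPM in WT and 2079.6 in KO arterial cells, below the 5054 and 2858 of other endothelial cells. Further venous markers (Vwf, Nr2f2, Ackr1, Vcam1 and Selp) were together higher in the class, summing to 1552 against 383 CPM in WT and 1221 against 343 in KO, with Ackr1 and Selp at 0 in the members of both libraries and Nr2f2 at 0 in KO. The 5 markers of tip-like cells summed to 1175 against 407 CPM in WT and 774 against 1151 in KO, with Apln and Pgf at 0. Esm1 alone made up most of the sum in the members, at 1103 CPM in WT and 556 in KO. It was called higher than in other endothelial cells in both libraries, 4.81-fold in WT and 3.47-fold in KO. In KO, 63.0% of its UMIs were in 1 cell. The class thus held summed arterial markers above and summed general capillary markers below the other endothelial cells, together with Vwf and Vcam1, which large veins also express.

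The class was rare in both libraries. It held 2.76% of 1521 WT endothelial cells (exact Clopper-Pearson interval 2.00% to 3.71%) and 2.73% of 513 KO cells (1.5% to 4.54%), but 1.18% of WT and 2.12% of KO endothelial cells when every cell was thinned to 1500 UMIs before selection. Median depth was 4953.5 UMIs per WT cell (2048 to 9831) and 5561 per KO cell (3642 to 9320). Among all members, 24 WT cells carried 2 of the 5 arterial genes, 17 carried 3 and 8 carried 4, against 4, 6 and 4 KO cells. By summed level, the genes that made the selection stood at 309 CPM against 4.69 in other WT endothelial cells for Gja5, 345 against 11.4 for the kinase gene Bmx, 227 against 3.60 for the estrogen receptor gene Esr2 and 263 against 35.5 for the fibulin gene Fbln5. Dkk2, a secreted Wnt inhibitor, had 6 UMIs in 1 WT cell and 1 UMI in KO. These values describe the choice and carry no test.

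The border of the class was graded in WT and sharp in KO for Cxcl12, a chemokine gene outside the selection. WT members with exactly 2 arterial genes held 5730.3 CPM of Cxcl12, the 71 otherwise eligible WT cells with 1 arterial gene 2541, and cells with none 892. In KO the same 3 groups stood at 5815, 396 (63 cells) and 386 CPM. The cells with 1 arterial gene need not be of like kind in the libraries. Fbln5 was at 35.5 CPM in other WT endothelial cells. In other KO cells it was at 99.9 with Y-linked transcripts alone and 256 with Xist alone. Cxcl12 was at 460 and 24.9 CPM in these 2 kinds of KO cell. Their part in the unlike borders was not tested. Vwf, the clotting protein of large vessels, followed the order of Cxcl12 in WT, at 907, 481 and 63.5 CPM. So did Cdkn1c, at 369, 60.1 and 22.7 CPM. Hey1 (672, 456 and 442) and Dll4 (526, 329 and 278) had that order too, but their intervals overlapped between members with 2 arterial genes and cells with 1. A further 13 WT cells with 2 or more arterial genes fell outside because they carried venous genes, and they held 668 CPM of Cxcl12 and 6749.7 of Vwf. Gja4 and Sox17 did not follow that order in WT. Gja4, the connexin 37 gene, was at 134 CPM in members with 2 arterial genes and 141 in cells with 1, and the transcription factor gene Sox17 at 201 and 293. WT cells just inside the threshold therefore stood above those with 1 arterial gene in Cxcl12, Vwf and Cdkn1c. Of these, Cxcl12 and Cdkn1c had been proposed as markers of the class with these data in view, so their values at the border are a description. In Hey1 and Dll4 they were higher with overlapping intervals, and in Gja4 and Sox17 they were not higher.

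In the WT library, 155 of 3695 genes whose mean reached 50 CPM were called higher in arterial cells than in other endothelial cells, 4.19% of those compared, and 287 were called lower, 7.77%. A call needed a 2-fold difference in summed level and 95% Poisson intervals that did not overlap. Outside the selection genes, the 5 highest ratios among widely detected genes belonged to Pdlim3, which encodes a muscle-type protein that binds alpha-actinin, the cell cycle inhibitor gene Cdkn1c, Plac8, the cytokine gene Tslp and the adhesion receptor gene Adgrg6. Cdkn1c and Cxcl12 had been proposed as markers of the class with these data in view, so their place is a description. The sequences upstream of Pdlim3 and Plac8 are shown because these 2 genes had ratios among the 3 highest and have a RefSeq promoter entry. Bases of annotated exons were trimmed off, the sequence runs 5′ to 3′ in the direction of the gene, and capitals mark CACCC, the core motif bound by Kruppel-like factors.

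Pdlim3, chr8:45885237-45885460 (GRCm38.p6, plus strand), from 250 to 27 bases before the start:
Pdlim3: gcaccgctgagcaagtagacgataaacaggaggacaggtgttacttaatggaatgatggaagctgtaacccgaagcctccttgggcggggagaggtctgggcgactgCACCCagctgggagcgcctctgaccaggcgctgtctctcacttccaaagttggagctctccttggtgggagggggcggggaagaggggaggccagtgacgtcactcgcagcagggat
Plac8, chr5:100572246-100572455 (GRCm38.p6, minus strand), from 250 to 41 bases before the start:
Plac8: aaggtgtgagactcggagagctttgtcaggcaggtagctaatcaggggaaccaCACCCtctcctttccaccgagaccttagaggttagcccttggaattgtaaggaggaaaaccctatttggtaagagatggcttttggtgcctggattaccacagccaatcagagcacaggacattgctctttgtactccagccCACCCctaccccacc
The Pdlim3 window is 224 bases with 60.3% GC and 10 CpG dinucleotides, and the Plac8 window 210 bases with 51.9% GC and 2. Of 5 motifs searched on both strands, CACCC was found on the gene's strand 143 to 139 bases before the start of Pdlim3, and 197 to 193 and 55 to 51 bases before that of Plac8. CACCC is common, being present in 52.0% of 32841 RefSeq promoter windows. Neither window held GTGGGAA (the RBPJ core, bound by the Notch transcription complex), ACAATG (SOX), CGGAAG (ETS) or GGCGCC (the SMAD1 and SMAD5 element), which stood in 5.41%, 10.7%, 13.6% and 9.59% of all windows. These windows are shorter than those of the background, and a letter match is a description, not a binding site.

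Plac8 (chr5:100553725-100572245, minus strand, protein coding) was at 495 CPM in WT arterial cells (406 to 597) and 25.8 in other endothelial cells, a ratio of 19.2 (14.9 to 24.5). Across the 42 WT cells it ran from 0 through a median of 396 to 1781 CPM. In KO it stood at 459 against 24.0 CPM, a ratio of 19.2 (12.4 to 29.2). The gene was thus called higher in both libraries, although 17 of 42 WT and 7 of 14 KO arterial cells had no UMI of it. The share of WT cells with a Plac8 UMI was 59.5% in arterial cells, 2.54% in general capillary type cells and 1.35% in epithelial type cells, whose median depth was 17528 UMIs. After thinning every cell to 1500 UMIs these shares were 40.5%, 1.54% and 0.340%, so the arterial share stood far above the level seen in epithelial droplets. Plac8 was not particular to arterial cells, since its level in WT venous type cells was within 2-fold of theirs, as given below.

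Cxcl12 (chr6:117168535-117181367, plus strand, protein coding), which encodes the ligand of the receptor Cxcr4, was the most abundant of these genes. It reached 5689.6 CPM in WT arterial cells against 657 in other endothelial cells, a ratio of 8.66 (8.12 to 9.22), and 6420.0 against 364 in KO, a ratio of 17.6 (15.8 to 19.6). Single WT arterial cells ran from 0 through 4752 to 16392 CPM and single KO cells from 238 through 6544 to 14286, so the ranges of the libraries overlapped over most of their length. It was detected in 41 of 42 WT and 14 of 14 KO cells. By class in WT, arterial cells were highest, followed by general capillary type cells at 1014 CPM, venous type cells at 459.7 and aerocyte type cells at 94.4. The larger KO ratio came with a lower level in the comparison cells, while the arterial level itself was not called different between libraries (KO over WT 1.13, 1.02 to 1.25).

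**Figure D1:**
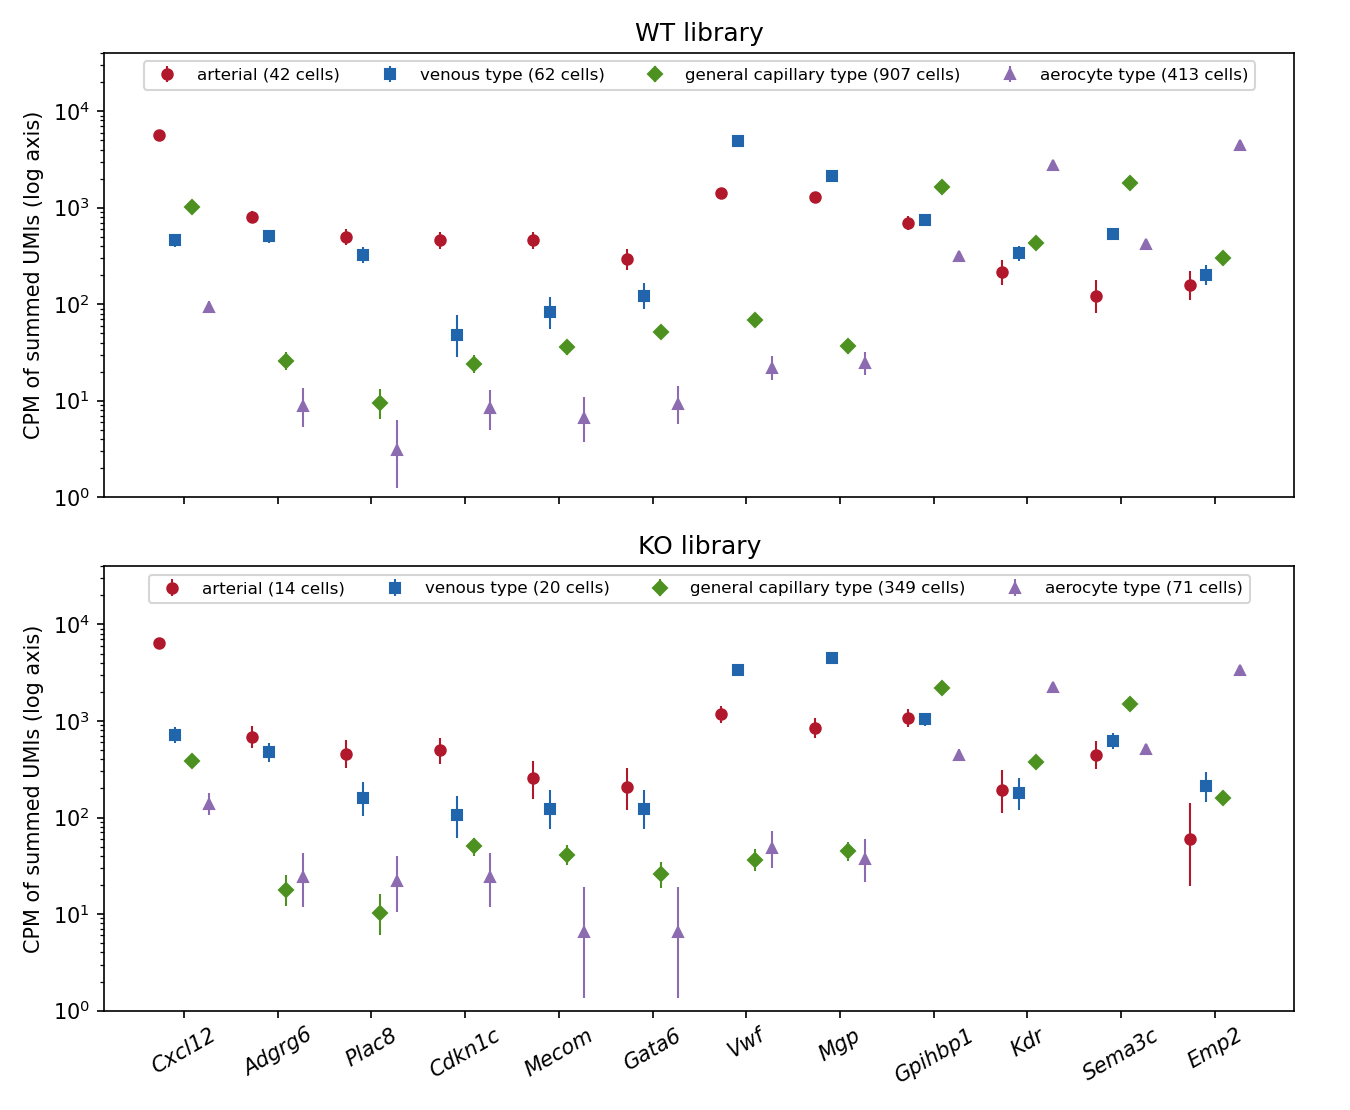
Summed levels in CPM (log axis) of named genes in arterial, venous type, general capillary type and aerocyte type cells of the WT and KO libraries, with 95% Poisson intervals. Cxcl12 is highest in the arterial class of both libraries, Vwf in the venous type, and Kdr and Emp2 in the aerocyte type.

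Adgrg6, which encodes a receptor that binds matrix proteins, was at 803 against 52.9 CPM in WT (15.2-fold, 12.6 to 18.3) and 689 against 55.4 in KO (12.4-fold, 8.97 to 17.0). It was detected in 32 of 42 WT cells, from 0 through 703 to 3845 CPM, and 12 of 14 KO cells, from 0 through 534 to 2034. Pdlim3 (chr8:45885461-45919548, plus strand) had the highest WT ratio, 172 against 7.20 CPM (24.0-fold, 15.2 to 37.6), with UMIs in 17 of 42 cells. In KO it had 2 UMIs, both in 1 cell, a ratio of 8.78 (0.890 to 46.1). Adgrg6 was therefore a broad feature of the class in both libraries and Pdlim3 a feature counted well in WT alone. In WT both were within 2-fold of their level in venous type cells, as given below. Other genes of the highest 20 that were called in both libraries included the membrane protein gene Thsd7a (222 against 29.7 CPM in WT and 399 against 60.2 in KO), the ubiquitin ligase gene Trim47 (259 against 34.7, and 242 against 25.2) and AU021092 (191 against 15.0, and 229.7 against 18.1). Tslp, the cytokine gene, was at 132 against 6.89 CPM in WT and had 3 UMIs in KO arterial cells, a ratio of 6.15 (1.14 to 21.7).

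Transcription factors of the class were led by Mecom (Evi1, a zinc finger protein) and Gata6. Mecom was at 458 against 30.4 CPM in WT (15.1-fold, 11.7 to 19.3) and 254 against 39.3 in KO (6.46-fold, 3.83 to 10.4). Gata6 was at 295 against 41.9 CPM in WT and 206 against 29.1 in KO, 7.03-fold and 7.06-fold higher. A Mecom UMI was found in 78.6% of WT arterial cells and 88.5% of epithelial type cells (45.2% and 23.9% after thinning to 1500 UMIs), so it is not particular to endothelium here. Both genes had the same order of endothelial classes in WT, arterial above venous type (82.3 and 122 CPM), general capillary type (36.0 and 52.0) and aerocyte type (6.59 and 9.22). Of the 19 endothelial transcription factors measured in WT, 4 were called higher and 4 lower, beside 4.19% and 7.77% of all genes compared. The lower ones were Tbx3, Ets1, Fli1 and Foxf1, at 0.231, 0.405, 0.475 and 0.425 times the level of other endothelial cells. Without the highest WT cell the Fli1 log2 ratio moved to -1.78. In KO, 6 of 23 were called higher and 1 lower, the median log2 ratios of the list being -0.30 in WT and -0.10 in KO, beside medians of -0.05 and 0.04 over all 8653 and 8007 genes compared.

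Of 21 arterial identity genes outside the selection, 10 were called higher and 1 lower in WT, and 11 higher and none lower in KO, where 4.1% of 3706 genes were called higher and 4.16% lower. The list was drawn up with these cells' results known, so its direction is not independent evidence. Cdkn1c, an imprinted gene whose product (p57) arrests the cell cycle, was at 458 against 20.7 CPM in WT (22.2-fold, 16.9 to 29.0), from 0 through a median of 0 to 3477 CPM in single cells. It was thus found in 20 of 42 WT cells and absent from the counts of the others. In KO it was at 496 against 48.4 CPM, with 63.4% of the UMIs in 1 cell, and without that cell its log2 ratio was 2.06. Gja4 (connexin 37) was 2.89-fold higher in WT (227 against 78.4 CPM) and 3.18-fold in KO (218 against 68.4). Efnb2, the ephrin that marks arteries against veins, was at 1783 against 907 CPM in WT, a ratio of 1.97 that missed the 2-fold call, and 1801 against 794 in KO, a ratio of 2.27 that met it. Sox17, a transcription factor needed for arterial fate, was at 199.6 against 211 CPM in WT and 254 against 302 in KO and was called in neither. Clu, the clusterin gene, was the lower one in WT, at 4.54 against 175 CPM, and stood at 84.6 against 90.4 in KO, where it had 7 UMIs and a log2 ratio of -0.10, or -0.83 without its highest cell.

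Notch genes were uneven. In WT, 3 of the 9 measured were called higher, the receptor Notch1 (835 against 387 CPM), the target Hey1 (681 against 282) and the feedback inhibitor Nrarp (259 against 56.0), and 1 lower, the sugar transferase Lfng (22.7 against 90.3). Without its highest cell the Lfng log2 ratio was -2.70. In KO, Notch1 and Hey1 were called higher among 11 measured, with ratios of 2.49 (1.96 to 3.13) and 2.16 (1.55 to 2.94). The ligand Dll4 was at 440.1 against 226 CPM in WT and 387 against 213 in KO, and its ratios of 1.95 and 1.82 stayed below the threshold of 2. The list's median log2 ratio was -0.35 (-1.53 to 1.11) in WT and 0.37 (-0.83 to 1.11) in KO, intervals that both span 0. The medians over all genes compared were -0.05 and 0.04. Of all genes, 4.19% were called higher and 7.77% lower in WT, and 4.1% and 4.16% in KO.

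Targets of BMP and SMAD signalling were called higher in 5 of 11 measured genes in WT (Id2, Smad6, Hey1, Gja4 and the hormone gene Stc1) and 6 of 11 in KO (those and Id1), with none lower in either library. Over all genes compared, 4.19% were called higher in WT and 4.1% in KO. Hey1 and Gja4 are also on the arterial identity list, and Hey1 on the Notch and transcription factor lists, so these lists are not separate evidence. Against only the other KO endothelial cells with Y-linked transcripts and no Xist, 4 of 11 were called higher in KO, since Id1 at 1.82-fold and Hey1 at 1.88-fold missed the 2-fold call. Smad6, an inhibitor induced by the pathway it blocks, was at 1066 against 437 CPM in WT (2.44-fold, 2.13 to 2.79) and 1028 against 427 in KO (2.41-fold, 1.91 to 3.0). Single WT cells spanned 0 to 2441 CPM with a median of 1023, and KO cells 215 to 3203 with a median of 948. Smad6 was thus about level between the libraries and above every other endothelial class, of which the nearest was the general capillary type at 464 CPM in WT and 476 in KO. The inhibitors of differentiation Id1 and Id3 were at 971 and 2355 CPM in WT arterial cells and 652 and 1214 in other endothelial cells, ratios of 1.49 and 1.94 that were not called. Venous type cells held 1036 CPM of Id1 and 2077 of Id3, close to the arterial values. Among 10 measured receptors, ligands and SMADs of the TGF-beta and BMP pathway none was called higher in WT and 1, Smad5, lower.

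Acvrl1, the mouse counterpart of the HHT2 gene, was at 1079.8 CPM in WT arterial cells (947 to 1226) and 1269.5 in KO (1038 to 1537), against 1463 and 1035 in other endothelial cells. Every arterial cell had at least 1 UMI of it, with 200.1 to 1953 CPM in WT cells (median 1126) and 119 to 2816 in KO cells (median 1277). The libraries overlapped and the KO over WT ratio of 1.18 (0.925 to 1.49) was not called. Since the labels do not name the deleted gene, and reads from the 3′ end need not cover a deleted part, this value neither checks nor contradicts the labels. Its coreceptor Eng was at 1384 CPM in WT and 1463 in KO arterial cells, and the type II receptor Bmpr2 at 2142 and 1668.

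Vessel wall genes went in both directions. In WT, 5 of 16 were called higher, the elastic fibre genes Fbln2 (159 against 21.0 CPM) and Fbn1, the matrix Gla protein gene Mgp, the lysyl oxidase gene Loxl2 and Tinagl1. Another 5 were lower, the basement membrane genes Col4a1, Col4a2, Lamc1 and Nid1 and the microfibril gene Mfap2. Over all genes compared in WT, 4.19% were called higher and 7.77% lower. Mgp, whose product restrains calcification and binds BMPs, was at 1279 against 163 CPM in WT (7.83-fold, 6.84 to 8.94). Single WT cells ran from 0 through 98.1 to 8212 CPM, so a few cells held most of it. In KO, Mgp was called higher at 846 against 346 CPM, but 81.4% of its UMIs were in 1 cell and without that cell the log2 ratio was -0.98, lower than in other endothelial cells. Loxl2 likewise rested on 1 WT cell, its log2 ratio being 2.81 with that cell and 0.26 without it. Fbln2 in KO was 3.32-fold higher, and 0.89 on the log2 scale without its highest cell. Col4a1, the main collagen of basement membranes, was at 408 against 1416 CPM in WT and 749.6 against 3342 in KO, ratios of 0.288 (0.232 to 0.355) and 0.224 (0.172 to 0.288). Eln, the elastin gene, was at 603 against 391 CPM in WT, not called, and 1088 against 448 in KO, called higher.

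Guidance and coagulation genes were called in both directions. Of 17 guidance cues and ephrins in WT, 7 were called higher and 4 lower, beside 4.19% and 7.77% of all genes compared. The higher ones included the netrin receptor Unc5b (118 against 34.4 CPM), the leucine-rich adhesion protein gene Flrt2 (132 against 11.3) and the netrin Ntn4 (331 against 82.6). In KO, Ntn4 was 4.75-fold and Flrt2 9.84-fold higher, while Unc5b had 4 UMIs and a ratio of 1.27 (0.339 to 3.35) that was not called. The semaphorin Sema7a was nearly absent from the class, with 13.6 against 235 CPM in WT and 12.1 against 243 in KO, where it had 1 UMI. The clotting factor carrier Vwf was at 1402 against 331 CPM in WT (4.23-fold) and 1185 against 262 in KO (4.52-fold), and single arterial cells ran from 0 to 3563 CPM in WT and 0 to 6139.9 in KO. The plasminogen activator Plat was 7.37-fold higher in WT and 3.39-fold in KO, where 59.1% of its UMIs came from 1 cell and the log2 ratio without it was 0.63. Thrombomodulin (Thbd), an anticoagulant receptor, was called lower in WT, 263 against 1138 CPM, while in KO it was at 786 against 947.

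Set against venous type cells (62 in WT and 20 in KO) alone, the class differed in some of these genes and not in others. Cxcl12 was 12.4-fold higher in arterial than in venous type cells in WT (10.5 to 14.7) and 8.96-fold in KO (7.31 to 11). Hey1 was 9.22-fold higher in WT (6.05 to 14.6), Cdkn1c 9.50-fold (5.65 to 16.9), Mecom 5.57-fold (3.65 to 8.73) and Gja4 5.00-fold (2.80 to 9.40). The transporter gene Slc45a4 was 24.3-fold higher (9.97 to 77.0). These 6 genes were thus higher than in venous type cells and also higher than in all other endothelial cells. By contrast Plac8 (1.52), Adgrg6 (1.60) and Pdlim3 (1.84) were within 2-fold of venous type cells in WT. So were Fbln2 (1.08), Id1 (0.937), Id3 (1.13) and the leukocyte adhesion receptor Vcam1 (0.892). Vwf was lower than in venous type cells, at 0.289 times their level in WT and 0.351 times in KO, and Mgp at 0.600 and 0.187 times. The venous type was itself selected on its own genes, so it is one way of drawing that class.

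Genes of capillary cells were among the lowest in the class. Kdr, the main VEGF receptor, was at 213 against 1274 CPM in WT (0.167 times, 0.123 to 0.223) and 193 against 697 in KO (0.278 times, 0.158 to 0.452). The tetraspan membrane protein genes Emp2 and Pmp22 were at 159 and 90.7 CPM in WT arterial cells, against 1822 and 1100.3 in other endothelial cells. All 3 genes were highest in the aerocyte type, at 2758, 4478 and 2393 CPM in WT. In KO, Emp2 stood at 60.5 against 740.1 CPM and Pmp22 at 157 against 879, both called lower, and without the highest KO cell the Emp2 log2 ratio was -4.27. Against general capillary type cells alone, arterial cells held 0.491 times as much Kdr (0.359 to 0.656), 0.529 times as much Emp2 (0.366 to 0.741) and 0.230 times as much Pmp22 (0.140 to 0.356) in WT. Sema3c, a guidance cue of general capillary cells, was at 123 against 1187 CPM in WT and 447 against 1166 in KO, and without its highest KO cell the KO log2 ratio was -2.48. Prx, which encodes the scaffold protein periaxin, had 1 UMI in WT arterial cells (4.54 against 368 CPM, a ratio of 0.0123, 0.000312 to 0.0687).

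Of 14 capillary and lipid handling genes, 4 were called lower and none higher in WT (Kit, Aplnr, Sema3c and Ptp4a3), and 6 of 16 lower and none higher in KO. Their median log2 ratio was -0.56 (-1.99 to -0.32) in WT and 0.04 (-1.38 to 0.42) in KO. Over all genes compared the medians were -0.05 in WT and 0.04 in KO. Calls over all genes were 4.19% higher and 7.77% lower in WT, and 4.1% and 4.16% in KO. MHC class I genes, which present peptides to T cells, had a median of -0.85 (-1.24 to -0.22) in WT and -0.44 (-0.80 to 0.14) in KO, with 3 of 12 called lower in WT. H2-K1 was at 966 against 2110.5 CPM in WT, and the peptide transporter gene Tap1 at 36.3 against 85.8. Values of H2-Q genes are uncertain because their near-identical copies can share reads. Among genes of early stress, 6 of 15 were called higher in WT arterial cells and none lower, among them Fos at 236 against 89.2 CPM, Junb at 585 against 272 and the heat shock gene Hspa1a at 699 against 194. In KO, 2 of 14 were called higher, Hspa1a and its near copy Hspa1b, and none lower. Fos was at 12.1 against 24.8 CPM there, on 1 UMI. The part of cell handling in these values was not tested.

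The 2 libraries were set side by side over the genes of the class. Of the 155 genes called higher in WT, 154 had at least 3 UMIs in KO, of which 128 lay on the same side there and 59 were called alike. The other 26 lay on the opposite side. Of the 287 called lower, 265 lay on the same side, 22 on the opposite side, and 86 were called alike. The shared higher calls are 38.1% of the WT list and 38.8% of the KO list of 152, and the shared lower calls 30.0% of the WT list and 55.8% of the KO list of 154. No cell enters both comparisons. The 14 KO cells held 82710 UMIs in all, against 220401 in the 42 WT cells, which limits what could be called in KO.

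**Figure D2:**
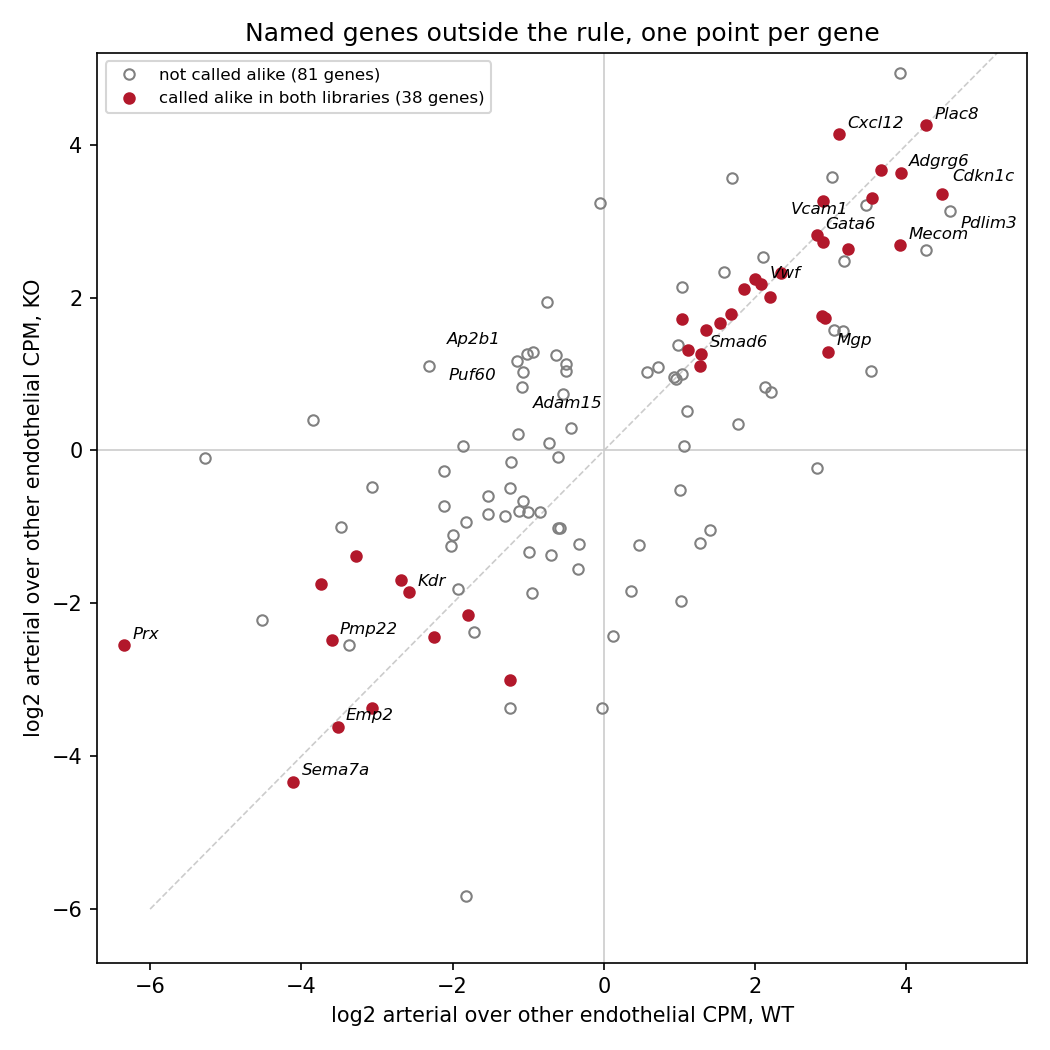
Log2 ratio of arterial over other endothelial CPM in WT (horizontal) and KO (vertical) for the named genes outside the selection, 1 point a gene. Filled points are the 38 genes called alike in both libraries; most lie near the diagonal, with Plac8, Adgrg6 and Cxcl12 at the upper right and Sema7a and Emp2 at the lower left.

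Within the WT class, after thinning to 1500 UMIs the ratio of variance to mean over cells was 7.16 for Mgp at a mean of 2.26 UMIs and 5.27 for Cxcl12 at a mean of 8.67, against a median ratio of 1.10 over 713 genes. The ratio can grow with the mean, so genes of unlike level are not ranked by it. The 42 WT cells were also split into 22 with a Fbln5 UMI and 20 without. Fbln5 is a gene of the selection and the split was chosen after the values were seen, so its values are a description. Cells with Fbln5 held 2122 CPM of Mgp and 1995 of Vwf, cells without it 304 and 715. Cdkn1c was at 626 and 264 CPM, Plac8 at 693 and 264, and Fbln2 at 245 and 58.8. Cxcl12 went the other way, at 5292 and 6151 CPM. The lipase anchor Gpihbp1, a capillary gene, was at 321 CPM in cells with Fbln5 and 1136 in cells without. Other matrix genes went both ways. Bgn was at 178 CPM with Fbln5 and 0 without, on 21 and 0 UMIs. Loxl2, which rested on 1 WT cell, was at 178 and 29.4 CPM. Eln was at 693 (551 to 860) and 499.5 (372 to 657), intervals that overlapped. The genes that follow were lower or near level with Fbln5. Col4a1 was at 329.7 CPM with Fbln5 and 499.5 without, Col4a2 at 127 and 284, and Sparc, a collagen-binding protein gene, at 473 and 735. Its relative Sparcl1 was at 219.8 and 627, and the fibrillin gene Fbn1 at 118 and 97.9. Matrix genes thus lay on both sides of the split, and Cxcl12 was high in both groups. Venous type cells held 2134 CPM of Mgp and 4853 of Vwf, and the part of cells of that kind in the split was not tested.

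**Figure D3:**
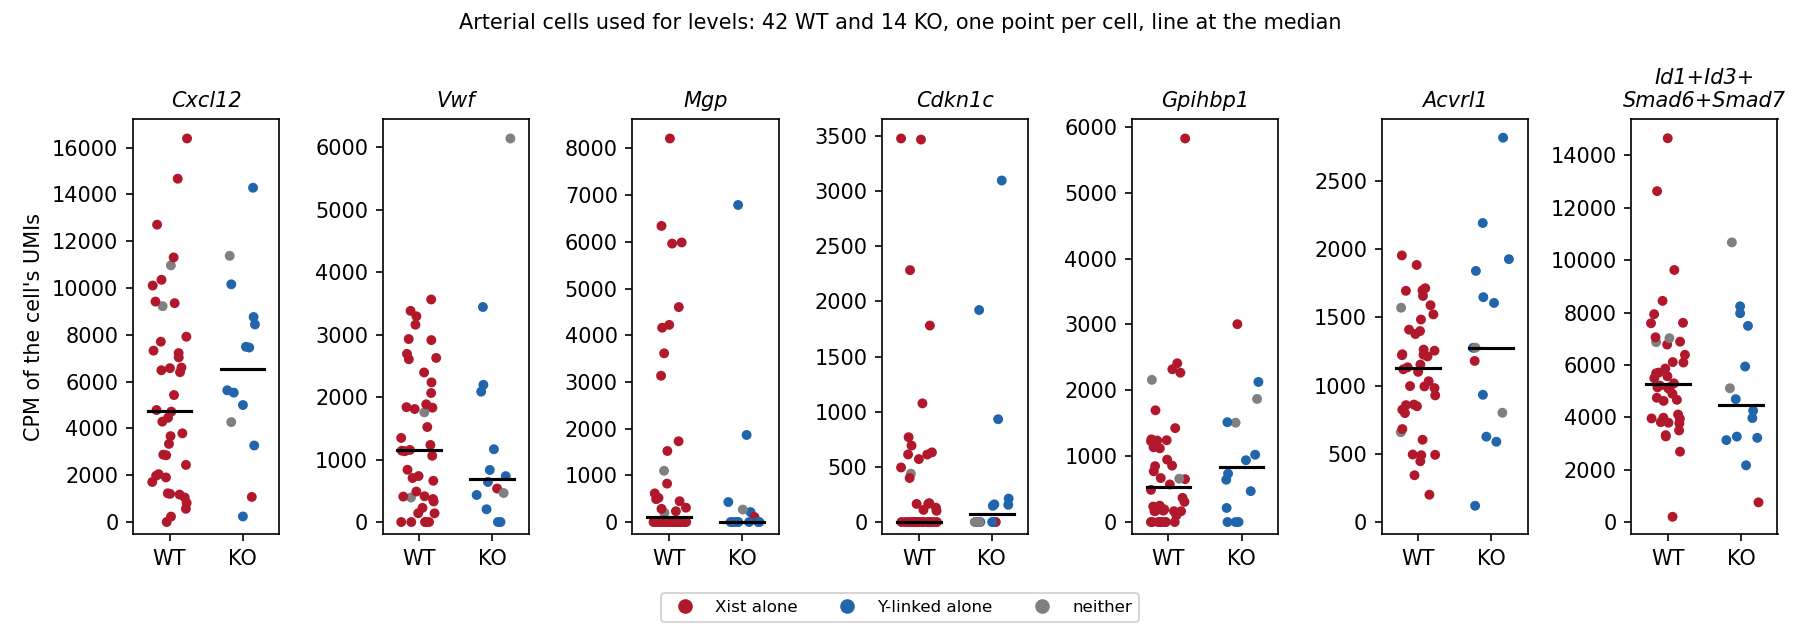
CPM of named genes, and of Id1, Id3, Smad6 and Smad7 summed, in each arterial cell (42 WT and 14 KO), with the median as a line and colours for cells with Xist alone, Y-linked transcripts alone or neither. Cxcl12 and Acvrl1 are spread over like ranges in both libraries, while Mgp is near 0 in most cells and high in a few.

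**Figure D4:**
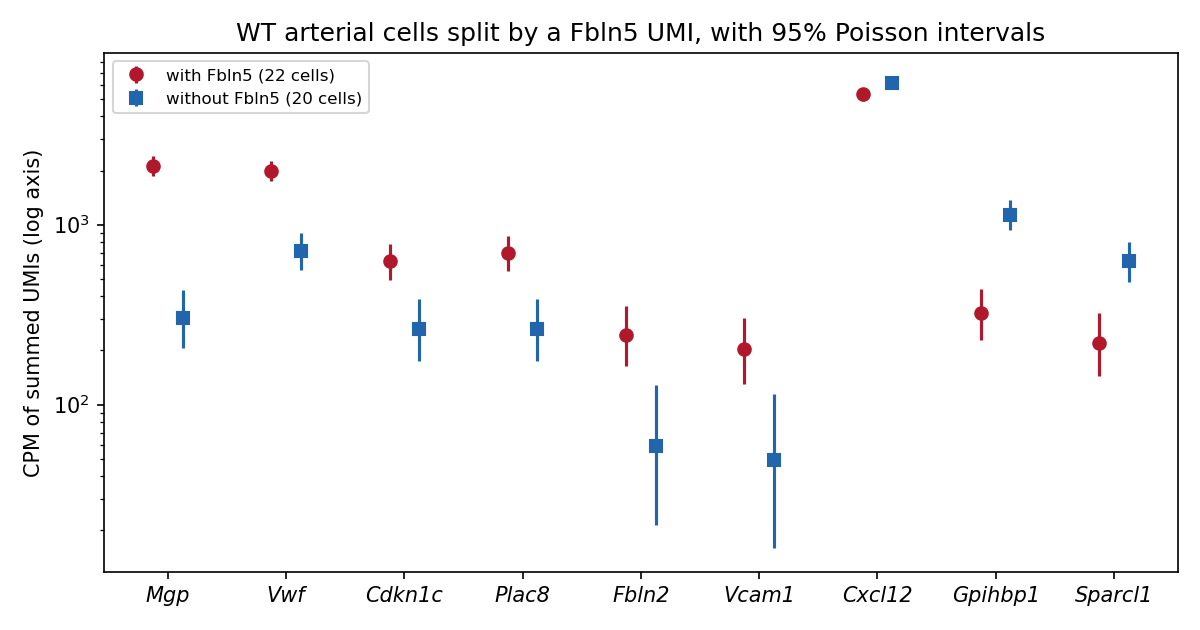
Summed CPM (log axis) of named genes in the 22 WT arterial cells with a Fbln5 UMI and the 20 without, with 95% Poisson intervals. Mgp, Vwf, Cdkn1c, Plac8, Fbln2 and Vcam1 are higher with Fbln5, Gpihbp1 and Sparcl1 are higher without it, and Cxcl12 is near level.

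Before the libraries are compared, the cells' sex-linked transcripts have to be set out. Among members, 47 of 49 WT cells had Xist alone and none a Y-linked gene, whereas 11 of 14 KO cells had Y-linked transcripts alone, 1 had Xist alone and 2 had neither. In other endothelial cells of the KO library 73 had Xist alone and 254 Y-linked transcripts alone. Genotype, sex and library therefore cannot be told apart in the comparison of KO with WT arterial cells. The summed level of Id1, Id3, Smad6 and Smad7 differed between the 2 kinds of KO cell. Other KO endothelial cells with Xist alone had a median of 201 CPM (quartiles 0 to 377), those with Y-linked transcripts alone 2388 (1274 to 3667), and WT cells with Xist alone 2545. In the arterial class, the 11 KO cells with Y-linked transcripts alone ran from 2165.9 through 4254 to 8237 CPM, the 2 with neither stood at 5108 and 10678, and the 1 with Xist alone at 751. The 40 WT arterial cells with Xist alone ran from 200.1 through 5176 to 14655, a range that holds the KO arterial cells. Its lowest value was that of the WT cell with lymphatic markers. The next lowest WT arterial cell stood at 2687 CPM, above the KO cells at 751 and 2165.9. Acvrl1 in other KO endothelial cells was at 429.9 CPM with Xist alone and 1191 with Y-linked transcripts alone, and the KO arterial values rest nearly wholly on cells of the second kind.

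In arterial cells, 82 of 3629 genes whose mean reached 50 CPM were called higher in KO than in WT, 2.26%, and 47 lower, 1.3%, at 1.5-fold with intervals apart. Genes of the class were found among the differences and outside them. KO over WT was 1.13 for Cxcl12, 0.845 for Vwf, 0.929 for Plac8, 0.858 for Adgrg6 and 0.907 for Kdr, none of them called. By contrast Pdlim3, Myof and Cdc42ep3, among the 20 highest class ratios in WT, were also among the 10 lowest KO over WT ratios. Ackr2, among the 10 lowest class ratios, had the highest KO over WT ratio of those ranked. The WT arterial UMIs of a gene enter both ratios, on opposite sides. A high or low WT count thus moves a gene toward opposite ends of the 2 rankings, so these overlaps are a description only. The arterial identity list had a median log2 difference of 0.08 (-0.19 to 0.68), with 4 of 21 called higher and none lower, beside a median of -0.03 over all 6822 genes compared.

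Ratios were ranked among called genes with at least 100 CPM in the higher group and no single cell with over 25% of its UMIs. The highest ratio so ranked was that of Ackr2, a scavenger receptor of inflammatory chemokines, with 13 UMIs in KO and 2 in WT arterial cells (157 and 9.07 CPM, 17.3-fold, 3.92 to 158). Its ratio in other endothelial cells was 0.914, and without its highest cell in each library the arterial log2 value was 4.88. Other high ratios belonged to Col5a2, a fibrillar collagen (157 and 18.1 CPM), Pdlim5, an actin-binding protein (314 and 68.1), and Ddah1, an enzyme that breaks down an inhibitor of nitric oxide synthase (145 and 31.8). In other endothelial cells the KO over WT ratios of these 3 were 1.34, 1.59 and 1.78. Ap2b1, Nsfl1c, Adam15, Cers5, Puf60 and Cerk completed the 10 highest so ranked, each with 7 to 12 UMIs in WT and 12 to 18 in KO. These are small counts, and the intervals are wide, such as 2.01 to 15.6 around a ratio of 5.33 for the clathrin adaptor gene Ap2b1. The Notch ligand Jag1, on 9 and 4 UMIs, was 6.00-fold higher (1.67 to 26.6) but was not ranked, since 55.6% of its KO UMIs were in 1 cell. Its log2 difference was 1.95 without its highest cell in each library.

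Better counted genes were higher by smaller factors. Thbd was at 786 CPM in KO and 263 in WT (2.99-fold, 2.06 to 4.33), with single cells from 0 through 509 to 2033 CPM in KO and from 0 through 194 to 1288 in WT. The groups overlapped, and in other endothelial cells the ratio was 0.832. Klf4, a factor induced by blood flow, was 1.91-fold higher (1.42 to 2.56), and 5 of 13 shear stress genes were called higher and none lower, with a median log2 difference of 0.30 (0.11 to 0.93). Over all genes compared, 2.26% were called higher and 1.3% lower, and the median was -0.03. The Notch target Hes1 was 2.41-fold higher (1.39 to 4.15), but -0.74 on the log2 scale when each cell was thinned to 1500 UMIs. Plat was 1.92-fold higher, but its log2 difference without its highest cell in each library was -0.07.

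Matrix genes were called higher in KO arterial cells in 5 of 18 cases and lower in 1, beside 2.26% and 1.3% of all genes compared. Col4a1 was at 749.6 and 408 CPM (1.84-fold, 1.31 to 2.57), beside a ratio of 2.36 in other endothelial cells, and Eln at 1088 and 603 (1.80-fold, 1.36 to 2.37). Mgp was the lower one, at 846 and 1279 CPM. Its log2 difference of -0.60 became -2.71 without its highest cell in each library and 0.21 under a stricter cell filter. Among capillary and lipid genes 4 of 13 were called higher and none lower, among them Sema3c (447 and 123 CPM, 3.65-fold, other endothelial cells 0.983). The log2 difference of Sema3c was 1.25 without its highest cell in each library.

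**Figure D5:**
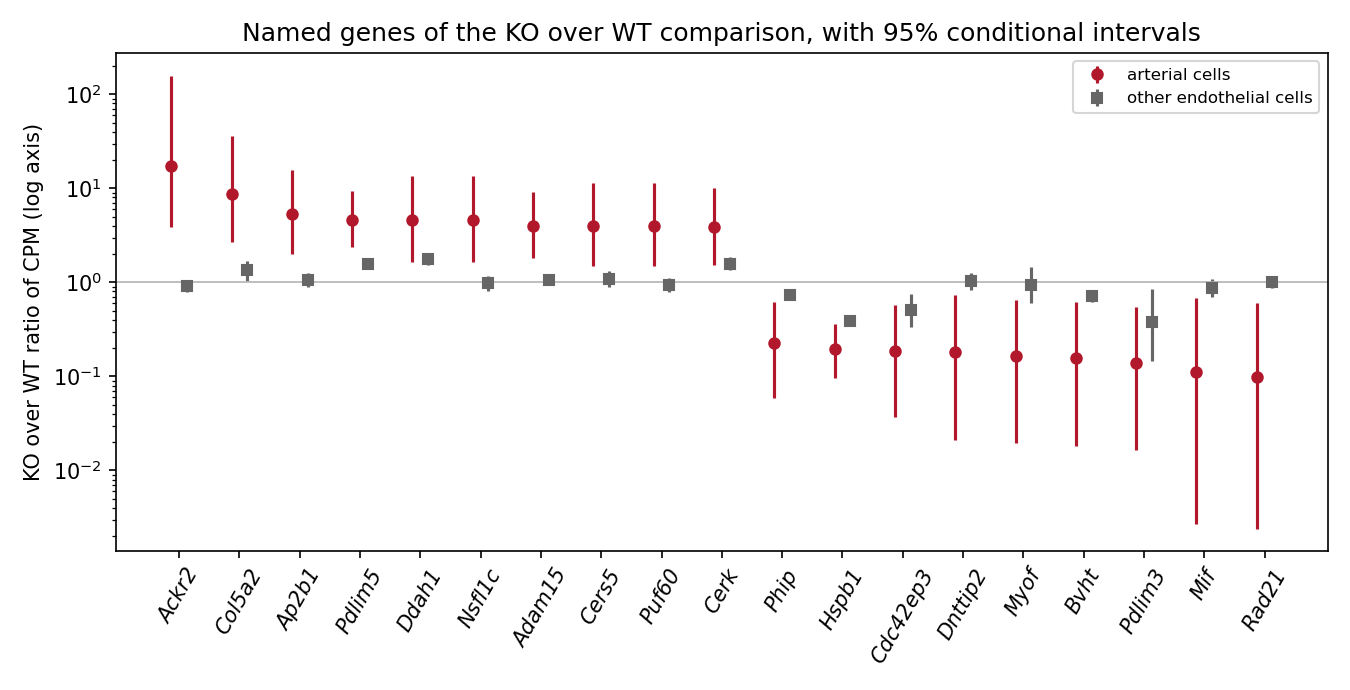
KO over WT ratio of CPM (log axis) for the genes with the highest and lowest ratios in arterial cells, beside the ratio in other endothelial cells, with 95% exact intervals. The 10 genes on the left lie above 1 in arterial cells and between 0.914 and 1.78 in other endothelial cells, with Ackr2 the highest at 17.3, and Hspb1 lies below 1 in both.

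Of the genes lower in KO, Ifi204, an interferon-induced gene, had 0 UMIs in KO and 107 in WT arterial cells, at least 13.4-fold lower when the KO sum is set to a floor of 3 UMIs. Its level in other endothelial cells was 155 CPM in WT and 0.786 in KO, so other endothelial cells differed in the same direction. Near-identical genes of the Ifi200 family can share reads, which makes the value uncertain. The other genes at the low end rested on 1 to 4 KO UMIs, apart from Hspb1. The cohesin subunit gene Rad21 had 1 UMI in KO and 27 in WT (ratio 0.0987, 0.00241 to 0.599), and the cytokine gene Mif 1 and 24 (0.111, 0.00270 to 0.681). In other endothelial cells their ratios were 1.00 and 0.877. Of the class genes, Pdlim3 had 2 and 38 UMIs (0.140, 0.0164 to 0.543), Myof, which encodes the membrane protein myoferlin, 2 and 32 (0.167, 0.0193 to 0.653), and Cdc42ep3, an effector gene of Cdc42, 3 and 43 (0.186, 0.0369 to 0.581). Their ratios in other endothelial cells were 0.382, 0.942 and 0.512. The long noncoding RNA Bvht was at 0.157 times the WT level, Dnttip2 at 0.184 and Phip at 0.227, beside 0.722, 1.03 and 0.742 in other endothelial cells. Stress genes were lower in 8 of 15 cases and higher in 1, with a list median of -0.93 on the log2 scale (-1.35 to -0.27). Over all genes compared, 1.3% were called lower and 2.26% higher, and the median was -0.03. Fos was at 12.1 CPM in KO, on 1 UMI, and 236 in WT (ratio 0.0512, 0.00127 to 0.298), and 0.278 times in other endothelial cells. Egr1 had a ratio of 0.320, with 77.8% of its KO UMIs in 1 cell and a log2 difference of -3.47 without its highest cell in each library. Hspb1, a small heat shock protein gene, was at 133 and 676 CPM (0.197 times, 0.0961 to 0.362). Hspa1a is a near copy of Hspa1b, so its ratio of 0.398 is uncertain. These genes were also lower in other endothelial cells of the KO library, at 0.393 times for Hspb1 and 0.333 for Hspa1a, and whether the handling of the libraries differed was not tested.

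BMP and SMAD targets were called in both directions. Of 11 measured in arterial cells, 1 was called higher and 3 lower in KO, and the list's median log2 difference was -0.06 (-0.75 to 0.36). Over all genes compared, 2.26% were called higher and 1.3% lower, and the median was -0.03. With the 11 KO cells that had Y-linked transcripts alone, 1 was called higher and none lower. Id3, one of the lower ones with all KO cells, was at 1402 CPM in KO and 2355 in WT (0.596 times, 0.483 to 0.730), with a ratio of 0.604 (0.574 to 0.636) in other endothelial cells. Single WT cells ran from 0 through 1980.2 to 9439 CPM and KO cells from 215 through 1604 to 3852, so the KO range lay inside the WT range. Id2 was at 0.482 times (0.269 to 0.813) and the transmembrane protein gene Tmem100 at 0.659 times (0.542 to 0.797) the WT level. In the 11 cells with Y-linked transcripts alone the ratios of Id3, Id2 and Tmem100 were 0.682 (0.544 to 0.848), 0.576 (0.310 to 1.000) and 0.714 (0.576 to 0.880), in the same direction and no longer called. Id1 (1.28, 1.00 to 1.63), Smad6 (0.964, 0.743 to 1.24) and Smad7 (0.767, 0.586 to 0.994) were not called.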

How the data were processed

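Unnormalised UMI counts for each gene and barcode were deposited for both libraries. The submitters' processing notes name Cell Ranger 3.0.1 and the mm10 build. They list 27998 genes, with 3482 WT and 2196 KO barcodes and totals of 25667220 and 17864581 UMIs. A barcode was kept with 500 or more genes and no more than 10% of UMIs from mitochondrial genes. Members and gene lists were chosen with earlier results of these data known. Of 280 list genes 277 were used, and of 90 marker genes 89. UMIs were summed per class with exact Poisson intervals, and ratios have exact conditional binomial intervals, all at 95%. List medians have binomial order-statistic intervals over the genes of the list, also at 95%. A sum of 0 was set to 3 UMIs for a ratio. Calls needed a mean of 50 CPM, list medians 10 CPM. Named genes were the 20 highest and 10 lowest WT class ratios (at least 100 CPM in the higher group, and 25% of arterial cells for the highest), the 10 genes at either end of the KO over WT ratios, and the leading members of each list. Ranks left out the selection genes, markers of other lineages, and genes that are sex-linked, mitochondrial, predicted only, or encode haemoglobin or ribosomal proteins. Other list members were named for their known role, after their values were seen. Positions are those of GENCODE M21 on GRCm38, and promoters those of RefSeq on GRCm38.p6. Doublets were kept: Scrublet, run as an alternative, called 37 WT (1.35%) and 12 KO (0.905%) cells, 1 of them arterial. Of the barcodes, 12 occurred in both libraries, none a member. Further alternatives were other cell filters, stricter membership, thinning, other minimum levels and other comparison cells. The scripts were tested on simulated data and used Python 3.11.15, numpy 2.4.6, scipy 1.17.1, pandas 2.3.3, scanpy 1.11.5 and matplotlib 3.10.9.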

Additional observations from a re-analysis of the deposited data

Results flagged for a closer look

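Genes called in WT could lie on the other side of the other endothelial cells in KO, as did 26 of those called higher and 22 of those called lower. Among the named genes, 3 with a mean of 50 CPM or more in both libraries lay on opposite sides with a 95% interval of the ratio clear of 1 in each, a difference between libraries that was not tested. Ap2b1, which encodes a clathrin adaptor subunit, had a log2 ratio of arterial over other endothelial cells of -1.14 in WT, on 7 UMIs, and 1.17 in KO, on 14 UMIs. Adam15, a membrane metalloprotease gene, stood at -1.08 on 12 UMIs and 0.83 on 18. Puf60, a splicing factor gene, stood at -1.06 on 8 UMIs and 1.03 on 12. All 3 are among the 10 genes with the highest KO over WT ratios, so the same counts chose them.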

How the results depend on the processing

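No paired analysis was possible because each group has 1 library. Leaving cells out for other filters, Scrublet calls or stricter membership left most of the values given within their 95% interval. Over all alternatives 443 list medians stayed inside it and 22 left it. Of the gene ratios given, 3093 stayed inside, 349 left it and 11 reversed. Another 408 values, of 100 genes, were not given and are outside this tally, so their stability is not known. With at least 3 arterial genes the share was 1.51% in WT and 1.95% in KO, and 1.18% and 2.12% when cells were thinned before selection. Thinning before selection left 80 genes lower in WT, 96 higher and 29 lower in KO, and 3 higher and 4 lower for KO over WT, thinning after selection 180, 95, 34, 13 and 14, in both cases on fewer UMIs. Without each gene's highest arterial cell in each library, which lowers small sums by construction, KO had 66 higher and 288 lower and KO over WT 38 higher. With cells of other lineages kept, WT had 236 higher and KO over WT 98 lower. No minimum level gave 332 higher and 450 lower in WT, while 200 CPM gave 50 and 75 in WT, 44 and 42 in KO, and 50 and 31 for KO over WT, on more and fewer genes compared.

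Reversed log2 values were, for KO over WT, 0.21 for Mgp under a filter of 1000 genes and 5% mitochondrial UMIs, -0.74 for Hes1 thinned after selection, -0.075 for Plat without its highest cell in each library, and -1.93 for Col4a1, -0.39 for Hes1 and -0.19 for Sema3c in the 1 KO cell with Xist alone. For arterial over other cells, they were -0.024 for Mgst1 and 0.19 for Gadd45b in WT and -0.32 for Mgst1 in KO with other lineages kept, -0.98 for Mgp in KO without its highest cell, and 1.53 for Gadd45b in WT against general capillary type cells. The cause was not tested. Alternatives chosen after seeing the data were a KO comparison group of cells with Y-linked transcripts alone and leaving out the WT arterial cell with lymphatic markers, which reversed no value. With 14 KO cells, genes near 50 CPM could not be compared closely.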
